A study of Mus musculus with 4 samples.

Results

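Lysosomal genes were examined by RNA sequencing of primary microglia of the mouse, which are the macrophages of brain tissue. The members were a named list of 34 genes for lysosomal enzymes, membrane proteins and regulators, to which every gene whose symbol starts with Atp6v was added (24 genes), which gave 58 of the 24148 genes of the table. They fall into cathepsins and other proteases (12 genes), glycosidases (8), lipid enzymes and cofactors (4), membrane proteins (8), regulators (2) and the proton pump (24). Control cells were untreated (2 libraries), and treated cells received LPS (lipopolysaccharide), a glycolipid from the cell envelope of Gram-negative bacteria, at 10 ng/ml for 4 h (2 libraries). In both groups the microglia had been detached by shaking from cultures of mixed glia and seeded once more. No strain, age or sorting step is stated, and nothing says that replicates are separate cultures or animals, so that p-values reflect just the spread among these libraries, which may be technical.

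The lysosome is the acidic compartment in which cells break down proteins, sugars and lipids. A multi-subunit proton pump, the V-ATPase, acidifies it: its membrane sector V0 carries the protons and its cytosolic sector V1 splits ATP. Hydrolases such as cathepsins and glycosidases work at the low pH inside, a coat of glycoproteins such as Lamp1 lines the membrane, and transcription factors of the MiT/TFE family, to which Tfeb belongs, drive many lysosomal genes by binding an extended E-box known as the CLEAR element. Microglia take up debris by phagocytosis and are rich in lysosomes.

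The bases before the start of the members' genes are shown first, because the CLEAR element is the sequence by which lysosomal genes are commonly recognised. RefSeq promoter sequences (GRCm38.p6) were found for 47 of the 58 members, and the 250 bases before the start were searched on both strands for 6 motifs. The core of the CLEAR element, TCACGTGA, was present in 5 of 47 members (10.6%), in 0.907% of 27025 genes and in 1.67% of the 7529 tested genes with a promoter sequence. The plain E-box CACGTG, which lies within that core, was present in 13 of 47 members (27.7%), in 6.86% of all genes and in 9.46% of the tested ones. The members with the core were Ctsd, Mcoln1, Atp6v1a, Gla and Ctsa. Stretches of 30 bases around it follow, with the core in capitals. That of Ctsa lay too close to the end of the window to be shown so.
Ctsd: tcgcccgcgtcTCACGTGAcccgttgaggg
Mcoln1: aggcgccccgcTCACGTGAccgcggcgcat
Atp6v1a: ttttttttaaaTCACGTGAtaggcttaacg
Gla (farther site): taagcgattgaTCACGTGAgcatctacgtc
Gla (nearer site): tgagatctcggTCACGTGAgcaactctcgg
These stretches lie at chr7:142387908-142387937 (minus strand), chr8:3500462-3500491 (plus strand), chr16:44139373-44139402 (minus strand), chrX:134601215-134601244 and chrX:134601182-134601211 (both minus strand). The stretch of Atp6v1a lies before the start that the promoter sequences use, but within the full span of the gene (chromosome 16, 44085402 to 44139702), which takes in transcripts that start farther upstream. Gla held the core at 2 positions, whose first bases are 228 and 195 bases before the start. Of the other motifs, GAAANN followed by GAAA, of interferon response elements, was found in 3 members (Atp6v1d, Ctss and Lamp1; 3.46% of all genes), TGANTCA of AP-1 sites in 5 members (7.82% of all genes), GAGGAAGT of PU.1 sites in 2 members (Ctsc and Gla; 2.79% of all genes), and GGGNN followed by TTTCC, of NF-kB sites, in 0 of 47 members (1.65% of all genes). A match is a string of letters and not a measured binding site.

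The windows of 3 members that the results below turn on, or that hold several matches, are shown with matched motifs in capitals, without bases inside the gene or an annotated exon. Ctsc (chr7:88277835-88278023, plus strand) and Atp6v1e1 (chr6:120822794-120822948, minus strand) are the 2 members called higher in LPS. Lamp1 (chr8:13158911-13159160, plus strand) held 4 E-boxes.
Ctsc: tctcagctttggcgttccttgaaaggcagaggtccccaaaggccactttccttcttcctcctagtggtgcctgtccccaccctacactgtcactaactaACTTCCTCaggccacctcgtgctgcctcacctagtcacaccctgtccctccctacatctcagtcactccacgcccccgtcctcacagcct
Atp6v1e1: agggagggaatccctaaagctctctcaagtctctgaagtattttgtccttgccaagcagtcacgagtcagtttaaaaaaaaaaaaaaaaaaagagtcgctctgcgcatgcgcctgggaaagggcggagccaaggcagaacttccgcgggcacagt
Lamp1: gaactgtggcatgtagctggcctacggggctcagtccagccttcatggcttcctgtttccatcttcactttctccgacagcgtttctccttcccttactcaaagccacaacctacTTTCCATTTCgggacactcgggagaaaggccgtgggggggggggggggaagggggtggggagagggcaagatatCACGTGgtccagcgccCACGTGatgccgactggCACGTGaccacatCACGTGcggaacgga
The window of Ctsc held 1 match to GAGGAAGT, read on the other strand, and neither it nor that of Atp6v1e1 held an E-box. In Lamp1 the E-boxes begin 61, 45, 28 and 15 bases before the start, and the capitals farther upstream mark its match to the interferon response motif.

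Total counts were 3617176 and 4080568 for the control libraries and 5095630 and 4592474 for the LPS libraries. All 8 genes of an LPS response list, among them Il1b, Il6 and Nos2, were called higher in LPS, as a check of the labels. Of 10 microglia markers, 9 were tested and 0 were called by edgeR, with 4 at an unadjusted p under 0.05, all of them lower. Their summed level was 2787 and 1991 CPM (counts relative to the scaled library total) in control and 1838 and 1431 in LPS, and its part in the levels of the members was not tested. Libraries numbered 1 and 2 differed in both groups. The summed level of 8 astrocyte markers was 83.7 CPM in control 1 and 97.2 in LPS 1 but 321 in control 2 and 450.2 in LPS 2. That of 9 markers of the oligodendrocyte lineage was 399.7 and 409.9 CPM in the libraries numbered 1 and 66.1 and 58.2 in those numbered 2. A change in cell number and a change in RNA per cell cannot be told apart in such bulk libraries.

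Of the 58 members, 41 averaged 10 counts or more per library and were tested. The other 17 are listed with hardly any counts, and among them are genes known to be abundant in microglia. Ctss, a cathepsin that cuts the invariant chain of MHC class II, had 0 counts in all 4 libraries, which by counting error alone would allow up to 0.829 CPM of the raw total in control 1. Cd63, a tetraspanin of late endosomes, had 5, 5, 0 and 3 counts. Psap, the precursor of the saposins that help degrade sphingolipids, was just above the limit and was tested, with 9, 19, 5 and 13 counts. The table lists RefSeq transcripts, and 12 members have more than 1 of them. Of these 12, only 3 (Cd68, Lamp2 and Psap) reached the mean count of 10, against 38 of 46 members with 1 transcript. Over all genes, 11.7% of those with several transcripts and 46.5% of those with 1 reached it. Low counts of the genes with several transcripts therefore give no level, and the 9 members concerned (Ctsa, Ctss, Gaa, Glb1, Lipa, Cd63, Tfeb, Atp6v0a1 and Atp6v1c2) are not described further. Of the 1537 counts that Lamp2 had on average, most lay on 1 of its 3 transcripts, and all counts of Cd68 lay on 1 of 2.

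At an adjusted p under 0.05 (edgeR's quasi-likelihood test), 2 of the 41 tested members were higher and 1 was lower in LPS. Over all 9548 genes tested, 6.55% were called higher and 1.79% lower, so that the shares among the members (4.88% and 2.44%) were close to that background. The cathepsin gene Ctsc and the pump subunit gene Atp6v1e1 rose, and the pump subunit gene Atp6v0d2 fell. With any 1 of the 4 libraries left out, 1 member was called in each direction. The median log2 fold change of the members was -0.29, against -0.05 for all genes tested, and 29 of 41 were below 0, against 53.6% of all genes. These values varied with the library left out. The median was -0.073 with 24 of 41 below 0 without control replicate 1, and -0.074 with 22 of 41 without LPS replicate 2. It was -0.36 with 29 of 40 below 0 without control replicate 2, and -0.37 with 29 of 41 without LPS replicate 1. Such fits leave the library numbers unbalanced between the groups. With library number added to the fit as a replicate block, the median was -0.26 with 29 of 41 below 0. Both LPS libraries lay below both controls for 15 of 41 members (36.6%, against 25.8% of all genes) and above them for 7 (17.1%, against 24.7%). Scaling by total counts shifted the median of all genes to -0.48, and with it 8 of 41 members were called lower and 1 higher, beside 489 lower and 469 higher of the 9548 genes.

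**Figure D1:**
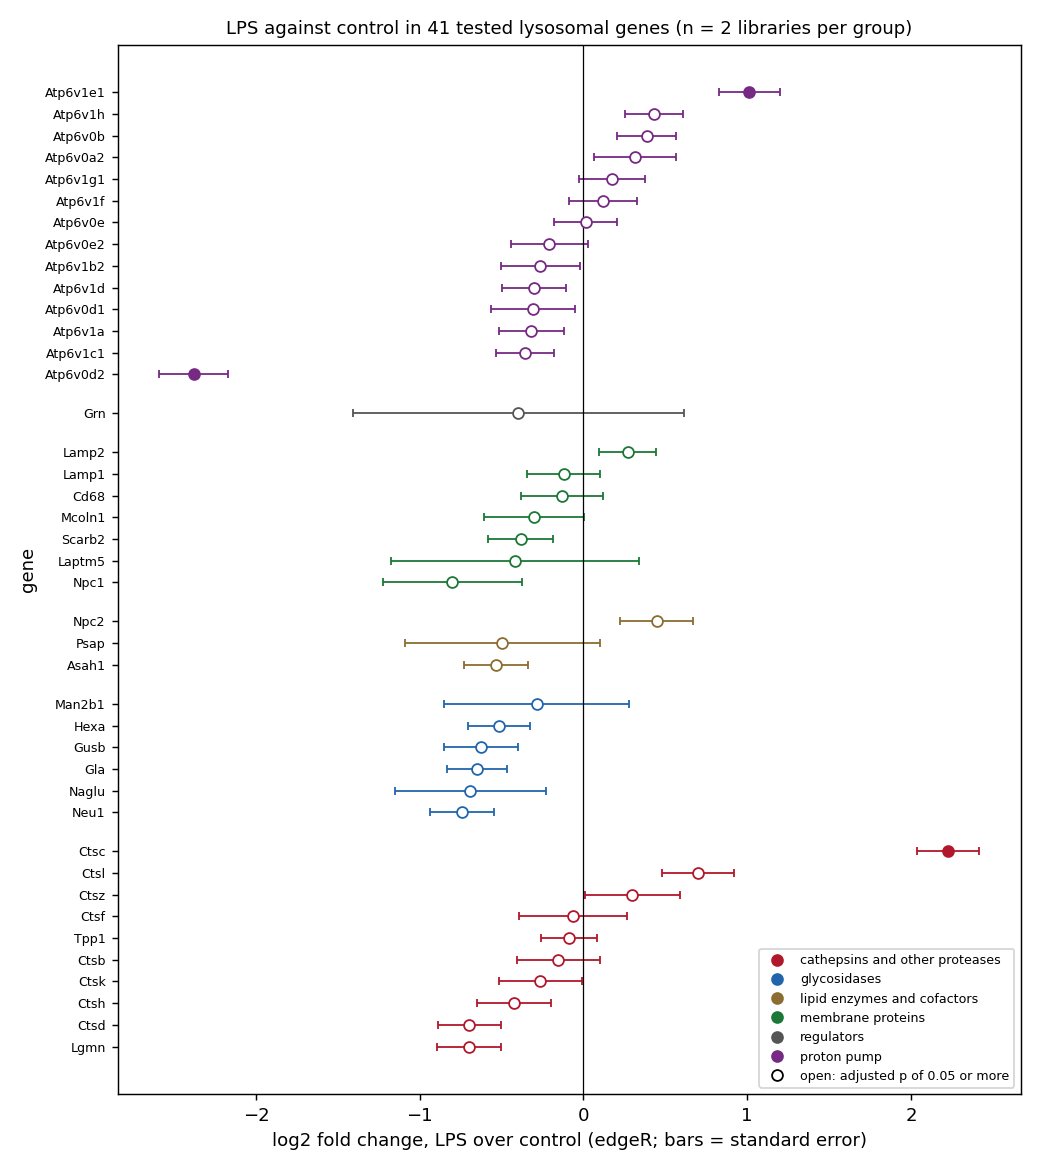
Log2 fold change of LPS over control (horizontal axis) for the 41 tested members, grouped by class; points are edgeR estimates and bars their standard errors, with filled points at an adjusted p under 0.05. Ctsc and Atp6v1e1 stand to the right and Atp6v0d2 to the left, and all 6 glycosidases lie left of 0.

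Among the proteases, Ctsc rose, and the tested members with the highest levels, Ctsd and Ctsb, did not pass the test. Ctsc (chromosome 7, 88278024 to 88315861, GRCm38) encodes dipeptidyl peptidase I, which removes dipeptides from other enzymes and thereby activates serine proteases of immune cells. It had 304 and 325 CPM in the control libraries and 1379 and 1569 CPM in the LPS libraries. The groups lay far apart compared with the distance between replicates. The rise was 4.69-fold (log2 fold change 2.23 ± 0.19 SE, adjusted p = 0.0025), and it was called under all 13 alternatives without a replicate block, with values between 1.43 and 2.36.

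Ctsd, an aspartic protease, had the highest CPM of the 41 tested members in each library. It had 19030 and 18337 CPM in control and 11996 and 11036 CPM in LPS, so that the groups did not overlap. Its log2 fold change was -0.70 ± 0.19 with an adjusted p of 0.10. With total-count scaling this became -1.13 (adjusted p = 0.022), with upper-quartile factors -0.93 (0.024), without a filter -0.59 (0.048) and with limma -0.61 (0.020). The cysteine protease Ctsb had 12512 and 9505 CPM in control and 11326 and 8467 in LPS, and the groups overlapped (-0.15 ± 0.25, adjusted p = 0.81; 0.05 without control replicate 1 and 0.05 without LPS replicate 2).

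The cysteine protease Ctsl had 2339 and 1890 CPM in control and 3806 and 3065 in LPS. Both LPS libraries were above both controls, but the difference did not pass the test (0.70 ± 0.22, adjusted p = 0.14; 0.81 and 0.029 without a filter, -0.32 and 0.36 in limma after quantile normalization). Lgmn, the asparagine endopeptidase that processes several cathepsins, had 822 and 775 CPM in control and 545 and 439 in LPS. Its LPS libraries were the lower ones, without a call (-0.70 ± 0.20, adjusted p = 0.11; -1.14 and 0.022 with total-count scaling, -0.93 and 0.033 with upper-quartile factors, -0.80 and 0.048 with a minimum mean count of 50, -1.52 and 0.0027 in limma). The other 5 tested proteases had mean levels of 17.8 (Ctsf) to 404 CPM (Tpp1) in control and of 17.0 to 381 CPM in LPS. The aminopeptidase Ctsh was the one among them with the lowest estimate, at 237 and 328 CPM in control and 204 and 217 in LPS, and Tpp1, a tripeptidyl peptidase, was at 407 and 402 against 383 and 379. The bone-degrading protease Ctsk was low, at 26.0 and 29.8 CPM in control and 20.4 and 26.1 in LPS.

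Per kilobase of transcript, the order of the tested proteases in control was Ctsd, Ctsb, Ctsl and Lgmn, and Ctsc came well below them. Ctsd had 8947 and 8621 CPM per kb in control and 5640 and 5188 in LPS. Ctsl had 1187 and 959 CPM per kb in control and 1931 and 1555 in LPS, where it lay beside Ctsb at 2388 and 1785. Ctsc went from 122 and 130 CPM per kb, among Ctsh, Tpp1 and Ctsz, to 553 and 629, above Lgmn at 274 and 220. The level of Ctsc was 0.0136 and 0.0151 of that of Ctsd in control and 0.0981 and 0.121 in LPS. The summed level of the protease class was 35857 and 31715 CPM in control and 29871 and 25346 CPM in LPS, most of it Ctsd and Ctsb. Ctsa and Ctss, whose counts give no level, enter this sum with few or 0 counts. Over the 10 tested members the median log2 fold change was -0.12, with 1 called higher and 0 lower by edgeR (2 lower at an unadjusted p under 0.05, 2 in limma and 0 in DESeq2). With library number as a replicate block 2 of the 10 were called higher and 3 lower, beside 1676 and 1258 of the 9548 genes. Ctsl was then among the higher ones, and Ctsd and Lgmn were among the lower ones.

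**Figure D2:**
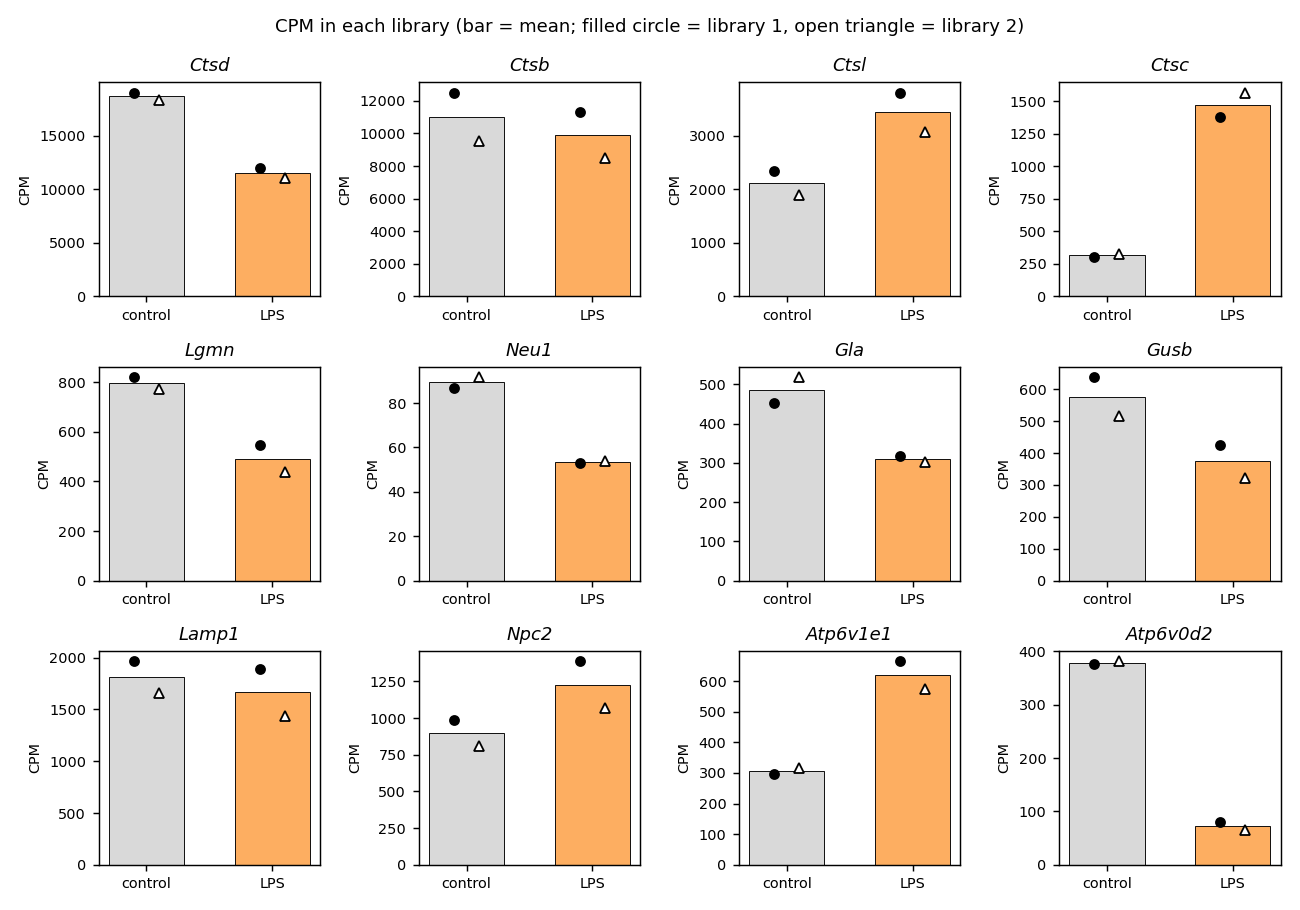
CPM in each library for 12 members (vertical axis from 0, own scale per panel); bars are group means, filled circles the libraries numbered 1 and open triangles those numbered 2. The groups are separate for Ctsc, Ctsd, Ctsl, Lgmn, Neu1, Gla, Gusb, Npc2, Atp6v1e1 and Atp6v0d2, and they overlap for Ctsb and Lamp1.

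All 6 tested glycosidases, which remove sugars from glycoproteins, glycolipids and glycosaminoglycans, had values below 0, and 0 passed the test. The median log2 fold change was -0.64 (range -0.74 to -0.29). In 4 of the 6 (Neu1, Gla, Gusb and Hexa) both LPS libraries lay below both controls, against 25.8% of all genes. The same 4 had an unadjusted p under 0.05, and all 4 were called lower with total-count scaling and in limma, but 0 were called in DESeq2. With library number as a replicate block 5 of the 6 were called lower, beside 1258 of the 9548 genes. Neu1, a sialidase, had 86.9 and 91.8 CPM in control and 52.9 and 53.9 in LPS. The groups did not overlap, and this was the lowest estimate among the 6 (-0.74 ± 0.20, adjusted p = 0.091; -1.18 and 0.035 with total-count scaling, -0.97 and 0.044 with upper-quartile factors, -0.84 and 0.048 with a minimum mean count of 50, -1.06 and 0.037 in limma).

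Gla, the α-galactosidase that is lost in Fabry disease and whose upstream bases hold the CLEAR core at 2 positions, had 453 and 520 CPM in control and 317 and 303 in LPS. Its value was -0.65 ± 0.18 (adjusted p = 0.11; -1.10 and 0.037 with total-count scaling, -0.88 and 0.044 with upper-quartile factors, -1.34 and 0.010 in limma). Gusb, the β-glucuronidase, had 639 and 515 CPM in control and 425 and 323 in LPS (log2 fold change -0.63 ± 0.23, adjusted p = 0.19; -1.05 and 0.027 with total-count scaling, -1.36 and 0.0080 in limma). Hexa, the α-chain of β-hexosaminidase, had 458 and 485 CPM against 360 and 300 (-0.51 ± 0.19, adjusted p = 0.20; -0.96 and 0.045 with total-count scaling, -1.22 and 0.0092 in limma). These 3 enzymes were thus lower in each LPS library than in each control library, by amounts that the main test did not call. Man2b1, an α-mannosidase, and Naglu, which degrades heparan sulfate, differed more between the libraries numbered 1 and 2 than between groups. Man2b1 had 809 and 309 CPM in control and 638 and 279 in LPS (log2 fold change -0.29 ± 0.57, adjusted p = 0.85). Its sign turned without control replicate 1 (0.55) or LPS replicate 2 (0.20). Within the libraries numbered 1 its log2 difference of LPS from control was -0.34, and within those numbered 2 it was -0.15. Naglu had 115 and 54.4 CPM in control and 68.1 and 36.5 in LPS, with log2 differences of -0.76 within number 1 and -0.58 within number 2.

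Of the lipid enzymes and cofactors, Npc2 was higher and Asah1 lower in both LPS libraries than in both controls, without a call. Npc2, which hands cholesterol to Npc1 inside the lysosome, had 987 and 813 CPM in control and 1388 and 1067 in LPS (log2 fold change 0.45 ± 0.22, adjusted p = 0.34; -0.56 in limma after quantile normalization). Asah1, the acid ceramidase, had 476 and 402 CPM in control and 325 and 282 in LPS (log2 fold change -0.53 ± 0.20, adjusted p = 0.20; -0.96 and 0.031 with total-count scaling, -1.19 and 0.0095 in limma). By edgeR 0 of 3 tested members of this class were called (1 at an unadjusted p under 0.05, 1 in limma and 0 in DESeq2), and the third is Psap with its few counts. With library number as a replicate block 1 of the 3 was called higher and 1 lower, beside 1676 and 1258 of the 9548 genes.

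Of the membrane proteins, 0 of 7 tested members were called by edgeR and 0 had an unadjusted p under 0.05 (0 called in DESeq2, 1 in limma). With library number as a replicate block 3 of the 7 were called lower, beside 1258 of the 9548 genes. The median log2 fold change of the 7 was -0.30, but -0.040 without control replicate 1. It was 0.067 without LPS replicate 2, where 3 of 7 were below 0. Lamp1, a main coat glycoprotein, whose upstream bases hold 4 E-boxes, had 1966 and 1654 CPM in control and 1888 and 1440 in LPS. The groups overlapped (-0.12 ± 0.22, adjusted p = 0.83; 0.07 without LPS replicate 2; -1.20 and 0.0065 in limma). Lamp2, its relative with a part in chaperone-mediated autophagy, had 322 and 327 CPM in control and 403 and 379 in LPS, and was the member of this class with the highest estimate (0.27 ± 0.17, adjusted p = 0.46; -0.17 with total-count scaling and -0.31 in limma). Npc1, the membrane transporter that exports cholesterol, had the lowest estimate, with 334 and 168 CPM in control and 184 and 104 in LPS (log2 fold change -0.80 ± 0.42, adjusted p = 0.37). Its groups overlapped, since control 2 lay below LPS 1. The estimate was -0.24 without control replicate 1 and -0.44 without LPS replicate 2. It was -1.25 without control replicate 2 and -1.26 without LPS replicate 1. Within the libraries numbered 1 the log2 difference of LPS from control for Npc1 was -0.86, and within those numbered 2 it was -0.69. With library number as a replicate block edgeR gave -0.78 (adjusted p = 3.1e-05). Scarb2, the receptor that carries β-glucocerebrosidase to lysosomes, had 91.6 and 97.8 CPM in control and 69.3 and 75.9 in LPS. Cd68, a macrophage sialomucin, had 162 and 141 CPM against 164 and 113, and the calcium channel gene Mcoln1, which holds the CLEAR core, had a mean of 46.8 CPM in control and 37.9 CPM in LPS.

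Several members differed more between library numbers than between control and LPS. Grn, the progranulin gene, whose product is cut into granulins in the lysosome, had 477 CPM in control 1 and 353 in LPS 1 but 79.2 in control 2 and 68.4 in LPS 2. The libraries numbered 1 were thus 6.02-fold higher in control and 5.17-fold higher in LPS. Laptm5, a lysosomal membrane protein of blood cells, had 1048 and 780 CPM in the libraries numbered 1 and 299 and 227 in those numbered 2, a ratio of 3.50 in control and 3.44 in LPS. Man2b1 did the same with ratios of 2.62 and 2.29. These 3 members exceeded 2-fold in both groups, which is 7.32% of the 41 tested, against 2.38% of all genes. In 0 members, but 2.86% of all genes, the libraries numbered 2 were higher to that extent. Between groups Grn gave a log2 fold change of -0.40 ± 1.01 (adjusted p = 0.89) and Laptm5 -0.42 ± 0.76 (0.83). Their signs turned without control replicate 1 (1.39 and 0.73) or LPS replicate 2 (0.35 and 0.22). Within the libraries numbered 1 the log2 difference of LPS from control was -0.43 for both genes, and within those numbered 2 it was -0.21 for Grn and -0.40 for Laptm5. The astrocyte and oligodendrocyte lineage markers given above also differed by library number, and their part in these differences was not tested.

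**Figure D3:**
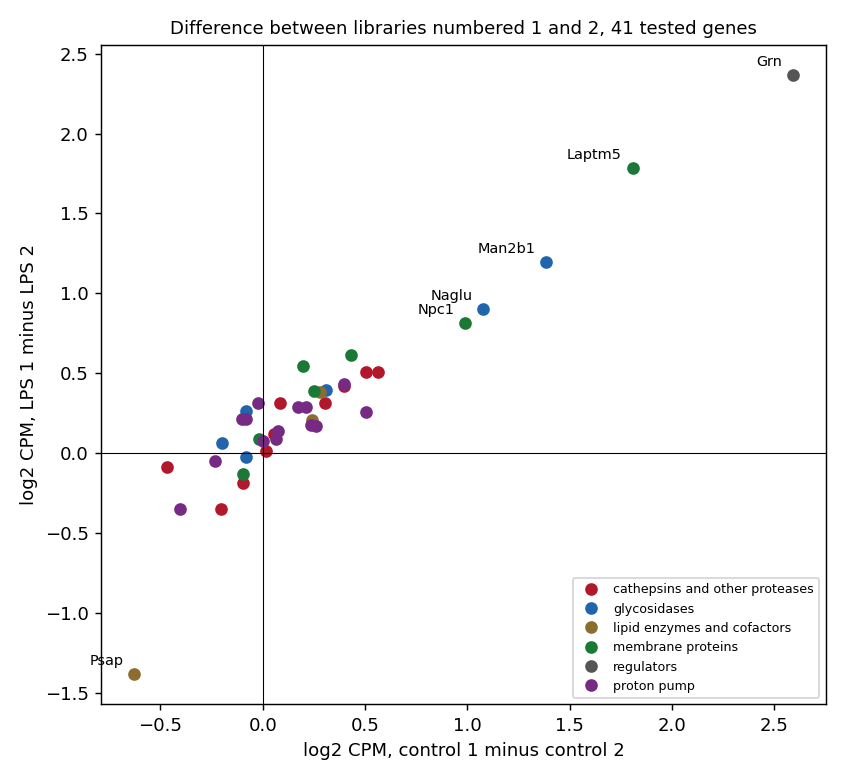
Difference in log2 CPM between the libraries numbered 1 and 2, in control (horizontal axis) and in LPS (vertical axis), for the 41 tested members, coloured by class. Most members lie near the origin, while Grn, Laptm5, Man2b1, Naglu and Npc1 lie at the upper right, higher in the libraries numbered 1 of both groups, and Psap, with few counts, lies at the lower left.

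In the proton pump, 1 subunit gene rose, 1 fell and the other 12 tested genes were not called. Of the 24 genes chosen by symbol, 14 were tested, 6 of V0 and 8 of V1. The median log2 fold change of the 14 was -0.10, with 7 above and 7 below 0 (13 below 0 with total-count scaling). With library number as a replicate block 3 of the 14 were called higher and 2 lower, beside 1676 and 1258 of the 9548 genes. Among the 10 not tested, Atp6v0c-ps2 is a pseudogene and Atp6v1fnb is named for its place beside Atp6v1f. Atp6v0c, which encodes the proteolipid ring, had 2, 0, 1 and 0 counts. Near-identical copies of it exist, and its level is uncertain. The others not tested have isoforms that are better known from kidney, testis or neurons (Atp6v0a4, Atp6v1b1, Atp6v1e2, Atp6v1g2 and Atp6v1g3) or several transcripts (Atp6v0a1 and Atp6v1c2).

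Atp6v0d2 (chromosome 4, 19876838 to 19922566) encodes the form of subunit d, part of the rotor of V0, that is known from osteoclasts and macrophages. It had 376 and 382 CPM in the control libraries and 80.6 and 64.8 CPM in the LPS libraries. The controls were nearly equal, and both LPS libraries were far below them. The fall was 5.21-fold (log2 fold change -2.38 ± 0.21, adjusted p = 0.0026), and it was called under all 13 alternatives without a replicate block, with values between -2.85 and -2.23. Its widely expressed paralog Atp6v0d1 had 160 and 121 CPM in control and 130 and 96.4 in LPS, with overlapping groups and an adjusted p of 0.58. Per kilobase of transcript Atp6v0d2 was the higher of the pair in control, at 148 and 150 CPM per kb against 98.0 and 74.3. In LPS it was the lower one, at 31.7 and 25.5 against 79.9 and 59.2. The ratio of Atp6v0d2 to Atp6v0d1 was 1.51 and 2.02 in control and 0.397 and 0.431 in LPS. An exact two-sided permutation test on the log2 ratio gave p = 0.333, the smallest that 2 against 2 libraries allow.

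**Figure D4:**
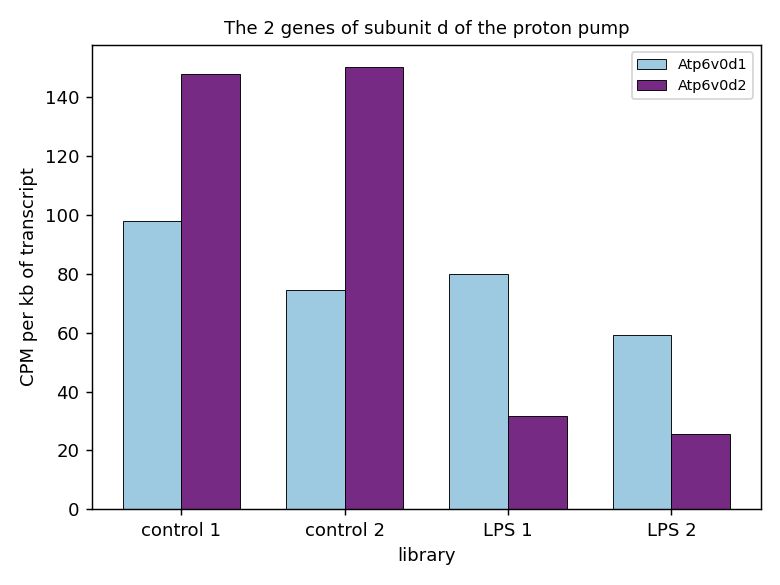
CPM per kilobase of transcript (vertical axis from 0) of Atp6v0d1 and Atp6v0d2 in each library. Atp6v0d2 is the taller bar in both control libraries and the shorter one in both LPS libraries.

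Atp6v1e1 (chromosome 6, 120795244 to 120822698) encodes subunit E of the stalk that holds V1 to V0. It had 296 and 318 CPM in control and 665 and 573 CPM in LPS. Both LPS libraries were well above both controls, with a 2.02-fold rise (1.01 ± 0.19, adjusted p = 0.030). The call rests on all 4 libraries together and was lost when any 1 was left out. The estimate was then 0.95 without control replicate 1, 1.03 without control replicate 2, 0.91 without LPS replicate 1 and 1.12 without LPS replicate 2. The call was also lost with total-count scaling (0.57, adjusted p = 0.16), with upper-quartile factors (0.78, 0.057) and in limma (0.40, 0.23). With library number as a replicate block edgeR called Atp6v1e1 higher (1.01, adjusted p = 1.5e-06).

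The remaining V1 genes stayed within 1.35-fold of control. Atp6v1a, the catalytic subunit, had 1368 and 1213 CPM in control and 1138 and 931 in LPS (log2 fold change -0.32 ± 0.20, adjusted p = 0.45; -1.33 and 0.0061 in limma). The CLEAR core near one of its starts is shown above. Atp6v1h, the regulatory subunit H, had 215 and 206 CPM in control and 292 and 275 in LPS, with an adjusted p of 0.25. Atp6v1c1, subunit C, had 243 and 243 CPM in control and 194 and 185 in LPS, with an adjusted p of 0.34. These 2 genes had separate groups on opposite sides of control, without a call for either. Atp6v1b2, Atp6v1d, Atp6v1f and Atp6v1g1 had mean levels of 119 to 490 CPM in control and 125 to 408 CPM in LPS. In V0, Atp6v0b went from 281 and 267 CPM to 375 and 340, with an adjusted p of 0.31, while Atp6v0a2, Atp6v0e and Atp6v0e2 had adjusted p values of 0.57, 0.98 and 0.70. The summed level of the V1 genes was 3343 and 2983 CPM in control and 3426 and 2937 in LPS. That of V0 was 1067 and 1040 in control and 862 and 767 in LPS. Atp6v0a1, Atp6v0c and Atp6v1c2, whose levels are uncertain, enter these sums with few or 0 counts. The V0 sum includes Atp6v0d2, at 376 and 382 CPM in control and 80.6 and 64.8 in LPS. The V1 sum includes Atp6v1e1, at 296 and 318 CPM in control and 665 and 573 in LPS. Of the 6 tested V0 genes, 3 had values above 0 and 3 below.

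Other genes of the pathway were read from 6 lists. Among 42 further hydrolases 33 were tested, 5 were called lower, and the median log2 fold change was -0.37. Of the 33, 30 had values below 0, against 53.6% of all genes, but 24 did without control replicate 1 and 25 without LPS replicate 2 (median -0.24). In 17 both LPS libraries lay below both controls, against 25.8% of all genes, and 1.79% of all genes were called lower. Pla2g15, a lysosomal phospholipase, fell from 111 and 78.1 CPM to 16.6 and 18.6 (-2.42 ± 0.27, adjusted p = 0.0060), and this call held in all 13 alternatives without a block. Sgsh, a heparan sulfatase, fell from 32.0 and 18.4 CPM to 6.01 and 3.38 (-2.41 ± 0.45, adjusted p = 0.032), and Manba, the β-mannosidase, from 84.0 and 65.7 CPM to 27.9 and 22.2 (-1.58 ± 0.25, adjusted p = 0.020). Galc, which degrades galactosylceramide, and the hyaluronidase Hyal1 were also called lower, and both were chosen after their values were seen (-1.15 and -1.47, adjusted p = 0.025 and 0.032). The calls of Sgsh, Manba, Galc and Hyal1 were lost without LPS replicate 1 or LPS replicate 2. In those fits, with 1 LPS library left, fewer genes of the whole table were called lower. The values were then -2.87 and -2.05 for Sgsh, -1.74 and -1.42 for Manba, -1.20 and -1.08 for Galc, and -1.48 and -1.44 for Hyal1. The call of Hyal1 was also lost without control replicate 1 (-1.51) or control replicate 2 (-1.47), and in DESeq2 (-1.34, adjusted p = 0.096).

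Of 30 further membrane proteins and transporters 20 were tested, with 1 higher and 1 lower. Slc15a3, a lysosomal transporter of histidine and small peptides, rose from 167 and 135 CPM to 800 and 660 (2.27 ± 0.22, adjusted p = 0.0037), called in all 13 alternatives without a block. The cation channel gene Tpcn2 fell from 42.4 and 41.5 CPM to 18.0 and 21.0 (-1.10 ± 0.23, adjusted p = 0.047), a call that was lost when any 1 library was left out (-1.21 to -0.99), without a filter (-0.99, adjusted p = 0.084) and in DESeq2 (-0.97, 0.16). Among 11 protease inhibitors 4 were tested. Cst7, cystatin F, which is known as an inhibitor of Ctsc, rose from 23.8 and 16.3 CPM to 66.4 and 47.1 (1.51 ± 0.31, adjusted p = 0.044). Cst7 was no longer called when control replicate 2 (1.21), LPS replicate 1 (1.24) or LPS replicate 2 (1.74) was left out, nor with total-count scaling (1.08), upper-quartile factors (1.28) or limma (1.33). Cst3, cystatin C, had 1136 and 1291 CPM in control and 1328 and 1345 in LPS.

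Among 15 accessory and assembly factors of the pump 10 were tested and 1 was called. Dmxl2, a part of the RAVE-like complex that joins V1 to V0, fell from 235 and 264 CPM to 74.6 and 118 (-1.37 ± 0.28, adjusted p = 0.041), and 3 of the 4 fits that left out 1 library did not call it (-1.31 without control replicate 2, -1.07 without LPS replicate 1 and -1.74 without LPS replicate 2). Tcirg1, which encodes the a3 subunit and is no member by its symbol, had 4.77 and 4.26 CPM in control and 9.62 and 10.9 in LPS, without a call. Of the 10 tested factors 8 were genes with 1 transcript, and where a gene has several, a low level such as this one is uncertain. Of 24 genes for sorting to the lysosome 19 were tested and 0 were called by edgeR, 0 in DESeq2 and 0 in limma (3 at an unadjusted p under 0.05). The mannose 6-phosphate receptor gene M6pr had the highest estimate there, at 576 and 597 CPM in control and 986 and 977 in LPS.

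Among 22 genes of the MiT/TFE family and of mTORC1 signalling at the lysosome, 17 were tested, 1 was higher and 1 lower. Tfec, a relative of Tfeb found mainly in macrophages, rose from 20.7 and 20.7 CPM to 237 and 212 (3.44 ± 0.21, adjusted p = 8.7e-04), and this call held in all 13 alternatives without a block. Rragd, a small GTPase that brings mTORC1 to the lysosome, fell from 99.3 and 94.6 CPM to 30.1 and 45.7 (-1.36 ± 0.27, adjusted p = 0.039), a call lost without LPS replicate 1 (-1.08) or LPS replicate 2 (-1.68). Mitf had 11, 12, 17 and 13 counts, near the minimum for testing. Tfeb itself had 1, 3, 2 and 0 counts on 3 transcripts and could not be tested. The 4 tested members with the CLEAR core (Ctsd, Gla, Atp6v1a and Mcoln1) all had values below 0, and 0 of the 4 were called. Values below 0 were also found for 29 of all 41 tested members and for 53.6% of all genes. A link between the core and the change was not tested.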

How the data were processed

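RNA of primary microglia was depleted of ribosomal RNA and made into directional libraries, per the labels' protocols. HTSeq 0.6.1, Cufflinks 2.2.1, TopHat2 2.0.10, Trimmomatic 0.33, CASAVA 1.8.2 and the mm10 build appear in the submitters' processing notes. How reads were counted, with which strand setting and annotation, is not given in the sources used here. The authors deposited whole-number counts for 32915 RefSeq transcripts in 4 columns. Its name calls the table normalized, without a method. Totals differ and low values show no gaps, so the values were treated as counts, and whether they had been rescaled was not tested.

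Transcripts were matched to symbols with a RefSeq table of GRCm38.p6 (32487) or GENCODE M21 (187), 241 stayed unnamed, and counts were summed per symbol. Lengths are those of the paired GENCODE transcript. The 9548 genes that averaged 10 counts or more were tested with edgeR 4.0.16 (quasi-likelihood, two-sided, TMM, no covariate, R 4.3.3), with Benjamini-Hochberg adjustment over all of them. CPM use TMM-scaled totals. DESeq2 1.42.0, limma 3.58.1 (trend, on log2(count + 1) after quantile normalization), other scalings, filters and transcript choices, and each library left out were alternatives. Members and lists were chosen with earlier results of these data known. Values in each library are given for called members, for the largest rise and fall and the 2 most abundant members of each class; Ctsl, Gla, Hexa and other uncalled genes were added after their values were seen. Counting limits (3 counts for a 0) cover counting error only. Results for 1 gene of the further hydrolases are not reported here.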

Additional observations from a re-analysis of the deposited data

How the results depend on the processing

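With 2 libraries in each group, counts of called members depended on the scaling. Against 2 members called higher and 1 lower, total-count scaling gave 1 and 8, upper-quartile factors 1 and 5 and limma after quantile normalization 1 and 12. No filter gave 3 and 2 of 55 tested members, and a minimum mean count of 50 gave 2 and 3 of 40. Of all 9548 genes, 171 were called lower in the main fit, 489 with total counts, 320 with upper-quartile factors and 322 in limma. Without a filter 205 of 21352 genes were called lower, and with the minimum of 50 it was 237 of 5769. Leaving out 1 library gave 1 to 1 higher and 1 to 1 lower. The share of higher among all called genes was 78.5%, but 49.0% with total counts, 62.7% with upper-quartile factors and 61.9% in limma. The median log2 fold change of the proteases was -0.55 with total counts, -0.35 with upper-quartile factors, -0.015 without a filter, -0.22 with the minimum of 50, -0.47 in limma, 0.0063 in DESeq2 and -0.21 to -0.013 with 1 library left out. In the same order, that of the proton pump was -0.53, -0.33, 0.0084, -0.20, -0.46, 0.031 and -0.18 to 0.0099. For glycosidases it was -1.08 with total counts, -0.87 with upper-quartile factors, -1.14 in limma and -0.78 to -0.41 with 1 library left out. For the lipid class, of 3 genes, it was -0.93 with total counts, -0.72 with upper-quartile factors, -0.14 with the minimum of 50, -0.043 with the top transcript only, -0.042 with genes of 1 transcript, 0.083 in DESeq2 and -0.43 to 0.040 with 1 library left out. For membrane proteins it was -0.73 with total counts, -0.53 with upper-quartile factors, -0.74 in limma and -0.42 to 0.067 with 1 library left out. Signs turned for Lamp2 with total counts (-0.17) and in limma (-0.31), for Ctsl (-0.32) and Npc2 (-0.56) in limma, and for Lamp1 in DESeq2 (0.0045). With 1 library left out, signs also turned for Ctsb (-0.37 to 0.047), Man2b1 (-0.997 to 0.55), Laptm5 (-1.56 to 0.73), Grn (-2.02 to 1.39) and Lamp1 (-0.32 to 0.067). The causes were not tested. The labels do not say that replicate numbers mark a shared culture, so by the labels same-numbered samples share only a number, and there are 2 pairs. In the counts, however, deviations of same-numbered libraries correlated across genes (r = 0.66). What these libraries share beyond the number was not tested, and the main fit did not use the number. With the replicate block, 6 of 41 members were called higher and 15 lower, beside 1676 higher and 1258 lower of the 9548 genes. Laptm5 (-0.41, adjusted p = 0.012) and Grn (-0.34, 0.046) were among the members called lower, and 57.1% of all called genes were higher. Where 1 library was left, it was assumed to vary like the other group. Genes with few counts, such as Psap, could not show a difference at these counts. Psap has 6 transcripts, and the low counts of such genes give no level. Its value was also the median of the lipid class in the main fit (-0.50).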
